A study of Mus musculus with 111 samples.

Results

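Gene expression in the gastrocnemius, the large calf muscle, was compared between 2 ways of disusing a hindlimb for 14 days, casting and cutting of the Achilles tendon (tenotomy). The quantity compared was the difference between the right and the left leg of the same animal, taken in each model and then between the models. The arrays were chosen by their labels as the day 14 casting and tenotomy arrays, 28 of the 111 in the series, and 13 of the series' 41 animals with both legs entered the comparison. They were 9 cast mice and 4 tenotomy mice, numbered 12, 35, 36 and 38. A right leg of tenotomy animal 11 and a left leg of animal 34 had no partner and entered only the alternative fits that use every array.

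All mice were male C57BL/6, 8 weeks old when treated. In the casting cohort the right hindlimb was immobilised in a cast, and the left leg of the same mouse stayed free. In the tenotomy cohort the mice were anaesthetised with ether and ketamine-xylazine, 1 Achilles tendon was cut just above the heel bone, and the mice then moved freely. Sham mice, whose tendon was handled without being cut (8 right legs at day 14), and 7 muscles of naive mice served here as reference levels only.

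The records conflict over which tenotomy leg was operated. In the series' design text the operation was on the right and the left leg was the control. In the labels of the arrays it is the left legs that are called tenotomy and the right ones control. Nothing in the labels settles this, so every value is named by side. The tenotomy difference is right (labelled control) minus left (labelled tenotomy), and the casting difference is right (cast) minus left (uncast). Read by the design text, both are treated minus untreated. Read by the sample labels, the sign of every tenotomy difference turns, and the comparison between the models was also computed that way. Side goes with treatment in both cohorts, and the animals were numbered separately in each, so that side and treatment, and cohort and model, cannot be told apart.

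As background, a cast holds the ankle fixed, which removes movement while both ends of the muscle stay attached. Cutting the Achilles tendon frees the lower end of the gastrocnemius, which loses its load and shortens, and the cut tendon heals by laying down collagen-rich matrix. Muscle that is little used loses mass through the ubiquitin-proteasome system, in which the muscle ligases atrogin-1 and MuRF1 mark proteins, and through lysosomal degradation.

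Each array held the RNA of 1 muscle, and its signals had been scaled to a common mean before deposit. All 12 muscle fibre markers passed the filter on dim probe sets, and Myh4, the fast myosin heavy chain of this muscle, had signals between 5385 and 17000 in the day 14 legs of both models. Array medians lay between 16.42 and 26.36 in these legs. The right array of cast animals P-21, P-24 and P-25 had a median more than 0.4 log2 units above that of the left. The log2 ratio of actin signals from the 3' and 5' ends of the transcript, commonly read as a measure of RNA integrity, moved in opposite ways in the models. It was higher in the right leg of 4 of 4 tenotomy animals (mean difference 0.65 ± 0.48 SD) and of 1 of 9 cast animals (-0.33 ± 0.32 SD). The same ratio for Gapdh did not oppose. It was higher on the right in 3 of 4 tenotomy animals (0.070 ± 0.10 SD) and 7 of 9 cast animals (0.015 ± 0.016 SD). Whether the actin ratio followed RNA integrity or the make-up of the tissue was not tested. The number of arrays limits the precision of every value. In whole muscle, fewer cells of a type and less RNA per cell cannot be told apart.

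With all animals, the leg difference was called for more genes in tenotomy than in casting. Most genes that passed in both models moved to the same side. Of 16029 genes tested, 2064 differed between the legs of cast mice (12.9%, with 1092 or 6.81% higher and 972 or 6.06% lower on the right). In tenotomy mice 2932 differed (18.3%, with 1710 or 10.7% higher and 1222 or 7.62% lower on the right). Leaving out 1 animal at a time gave 1362 to 2977 tenotomy and 1467 to 2157 casting calls, so this order did not always hold. With the actin ratio as a covariate the tenotomy calls numbered 1855. A gene was called when limma's adjusted p was under 0.05. Leg differences are given in log2 units, where 1 unit is a 2-fold ratio. The genes called in both models numbered 833, which is 40.36% of the casting calls and 28.41% of the tenotomy calls, and 797 of them moved to the same side (4.97% of all genes).

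**Figure D1:**
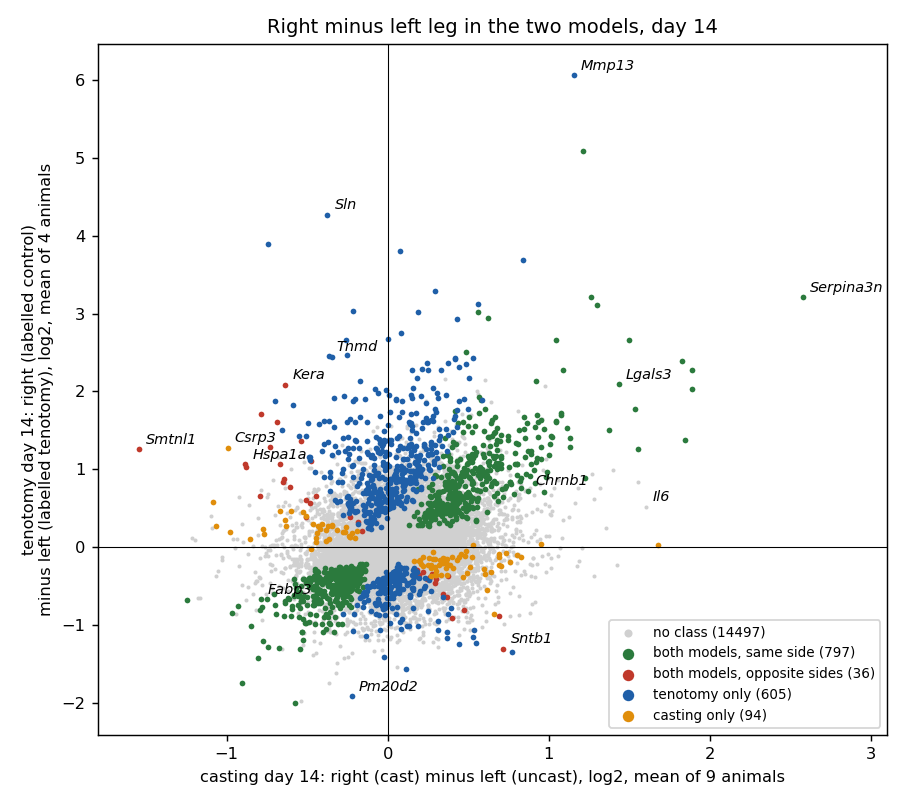
Leg difference of each of 16029 genes in casting (horizontal axis, log2, mean of 9 animals) and in tenotomy (vertical axis, log2, mean of 4 animals), coloured by class, with the number of genes per class in the key. Many labelled genes lie along the vertical axis, and the 36 genes called on opposite sides are few.

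The test of the difference between the models called 833 genes (5.2%), by coincidence the same number as above. The difference was higher in tenotomy for 543 (3.39%) and lower for 290 (1.81%). These shares over all genes are the reference for the counts of called differences in each list below. For members called in 1 model the reference is 6.81% higher and 6.06% lower in casting, and 10.7% and 7.62% in tenotomy. For members called on the same side in both models it is 4.97%. A gene was put in a class of 1 model only when it was called in that model, not called in the other, and the difference between the models was itself called. Tenotomy alone then held 605 genes (3.77%), 432 higher and 173 lower on the right. Casting alone held 94 (0.586%), 57 higher and 37 lower. Both models on opposite sides held 36 (0.225%), 21 of them higher on the right in tenotomy and lower in casting. A further 1494 genes called in tenotomy (9.32%) and 1137 called in casting (7.09%) showed no called difference between the models, and are given to neither. Without tenotomy animal 12 the called differences numbered 318, without the 3 cast animals named above 523, and with the actin ratio as a covariate 248.

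Genes of tendon and collagen matrix gave the widest contrast. Of 10 tendon cell markers, 8 had a called higher difference in tenotomy and 0 a lower one. The median leg difference of the 10 was 1.65 in tenotomy and -0.31 in casting, against 0.02 and 0.04 over all genes. All 8 were higher on the right in tenotomy, and 3 of the 10 were lower on the right in casting, a count that was 0 without cast animal P-26 or P-29. The marker list was chosen with earlier results of these data known. The count of called differences stayed between 7 and 9 when any 1 animal was left out and under every other setting run by side.

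Tenomodulin (Tnmd, probe set 1417979_at), a membrane protein of tendon cells, had left signals of 312, 208, 216 and 84.5 and right signals of 2086, 902, 1093 and 564 in tenotomy animals 12, 35, 36 and 38. The right leg was above the left in each of them, and every right leg exceeded every left leg. In cast mice the left legs ran from 675 through a median of 766 to 979, and the right from 469 through 598 to 1022, so that the legs overlapped. Naive muscles ran from 299 to 534. The tenotomy leg difference was 2.46 ± 0.35 (limma SE, n = 4, limma adjusted p = 1.9e-06) and the casting one -0.36 ± 0.23 (n = 9, adjusted p = 0.34). The difference between them was 2.82 ± 0.42 (adjusted p = 1.6e-05). Here and below, ± on a gene's leg difference, or on its difference between the models, is limma's standard error. It and the p-value rest on a variance pooled over all model and day groups of the fit. The spread of a group's own animals can be wider or narrower than this error implies.

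Keratocan (Kera), a small proteoglycan that spaces collagen fibrils, moved to opposite sides in the models. Its right signals in tenotomy were 974, 438, 755 and 358 against left signals of 124, 185, 175 and 80.6. In cast mice the median was 261 on the left and 165 on the right. It was called in both models on opposite sides (2.08 ± 0.29 in tenotomy, -0.64 ± 0.20 in casting, difference 2.72, adjusted p = 2e-06). Cilp2, a cartilage and tendon matrix protein, followed with 1.71 ± 0.35 and -0.79 ± 0.24. The casting call of Kera was lost in 8 of 26 alternative settings and that of Cilp2 in 5, while the difference between the models was called in all of them. The markers without a called difference were Chad (difference 1.52, adjusted p = 0.058) and Scx (0.56, adjusted p = 0.31), named here because they are the exceptions.

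Of 38 collagen and matrix genes tested, 33 had a called higher difference in tenotomy and 0 a lower one, and 28 were called in tenotomy alone. The median leg difference was 1.52 in tenotomy and 0.12 in casting. Without tenotomy animal 12 the 33 became 18, and with the actin ratio as a covariate 12, while the members higher on the right in tenotomy stayed between 33 and 35 of 38 under every setting run by side. Periostin (Postn), secreted by fibroblasts in healing tissue, had left signals of 100, 123, 120 and 122 and right signals of 3550, 1555, 978 and 1062 in the tenotomy mice. The leg difference was 5.09, 3.62, 2.99 and 3.08 in these animals, and from -0.47 through 0.57 to 2.20 in the cast mice, so the animals of the models did not overlap.

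Tenascin-C (Tnc), a matrix protein of healing and loaded tendon, gave leg differences of 3.29, 1.72, 1.76 and 2.35 in tenotomy and -0.81 to 1.44 in casting (difference 2.03 ± 0.42, adjusted p = 0.0016). The main chain of fibrillar collagen, Col1a1, gave 1.60, 0.89, 0.89 and 3.04 against -0.77 to 1.07 (difference 1.74 ± 0.37, adjusted p = 0.0024), and here the animals overlapped. The fibril-associated Col12a1 (difference 2.31) and the microfibril chain Col6a2 (2.04) were called in tenotomy alone. Lysyl oxidase (Lox), which crosslinks collagen, was higher on the right in both models, 2.28 ± 0.30 in tenotomy and 1.09 ± 0.20 in casting. Its difference of 1.19 between the models passed at an adjusted p of 0.042 and was lost in 14 of 26 settings.

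**Figure D2:**
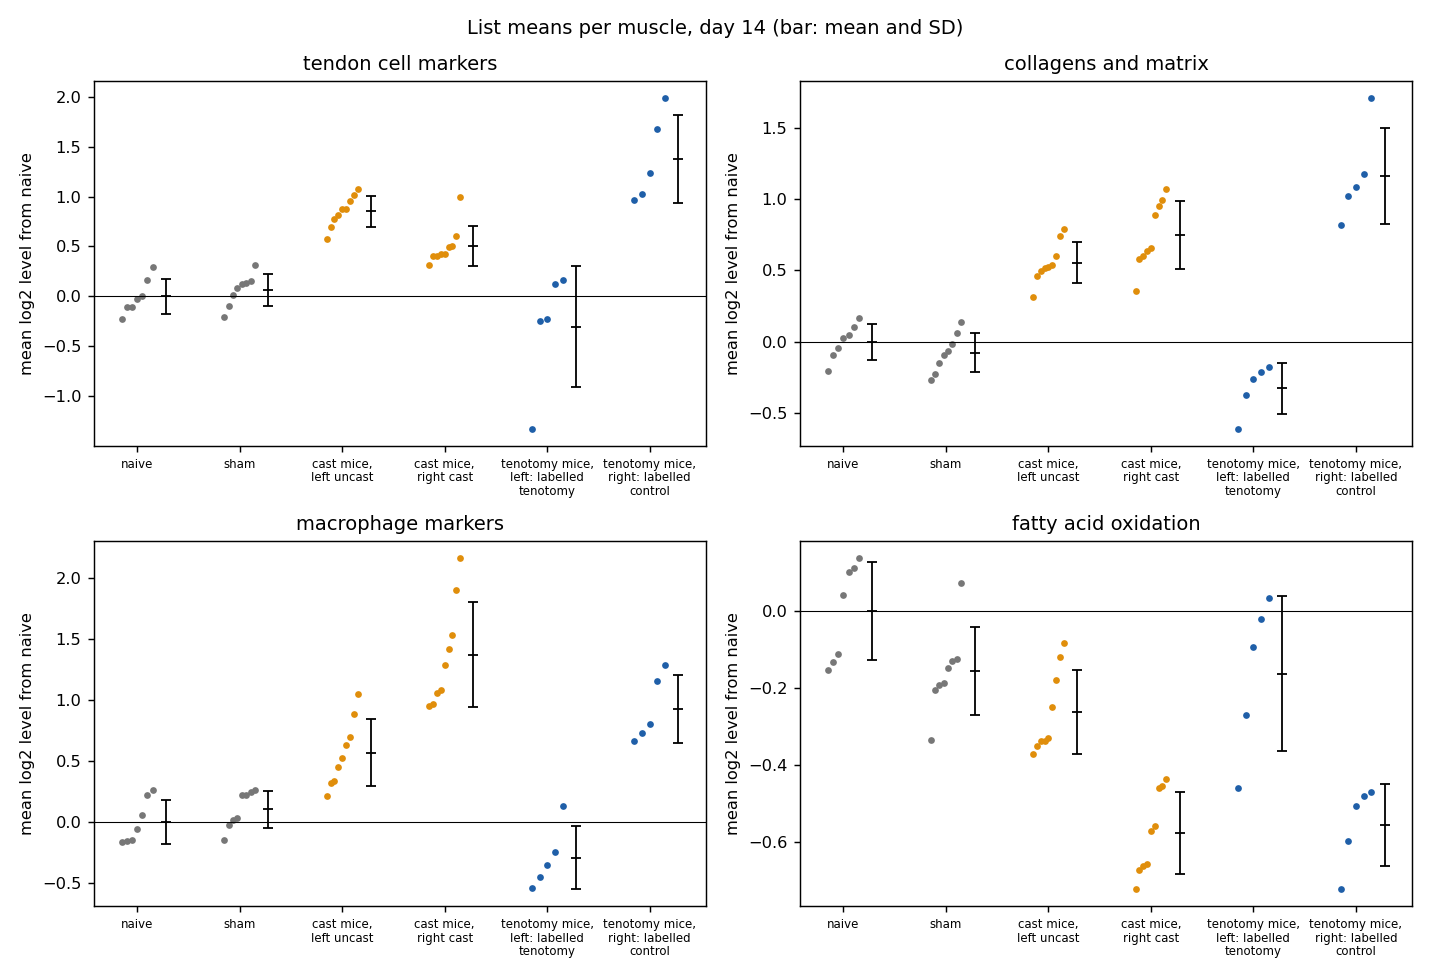
Mean log2 level of 4 gene lists in each muscle relative to the naive mean, for naive (7), sham (8), cast mice (9 left, 9 right) and tenotomy mice (5 left, 5 right, unpaired legs included); points are muscles and bars show mean and SD. For the tendon list the right tenotomy legs (0.97 to 1.99) lie above naive muscle (-0.22 to 0.30) and the left ones run from -1.33 to 0.17, while both legs of the cast mice lie above naive.

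The list levels place each leg against naive muscle. For the matrix list the right tenotomy legs averaged 1.16 ± 0.33 (SD, n = 5) above naive and the left, labelled tenotomy, -0.33 ± 0.18 (SD, n = 5). Both legs of cast mice were above naive, 0.75 ± 0.24 on the right and 0.55 ± 0.14 on the left (SD, n = 9), and sham muscles lay at -0.08 ± 0.14. For the tendon markers the order was 1.38 ± 0.44 in right and -0.30 ± 0.61 in left tenotomy legs, 0.51 ± 0.20 in right and 0.85 ± 0.16 in left cast-mouse legs, and 0.07 ± 0.16 in sham. The right tenotomy legs did not overlap the left ones in either list. The uncast legs of cast mice did not overlap naive muscle in either list, so that the leg difference in casting compares 2 legs above naive. Both legs also lay below naive in fast fibre genes (-0.93 ± 0.33 uncast, -0.96 ± 0.34 cast, SD, n = 9). Their mean actin ratios were -0.33 uncast and -0.66 cast, against -1.19 in naive muscle. Whether these shifts bear on the list levels, on arrays scaled to a common mean, was not tested.

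Matrix proteases and their inhibitors followed in part. Of 23 tested, 7 had a called higher difference in tenotomy (3.39% over all genes), and 9 were called on the same side in both models (4.97% over all genes). The collagenase Mmp13 had the largest tenotomy difference of the list, 6.06 ± 0.78. Its leg differences were 9.28, 3.04, 4.79 and 7.14 (SD 2.73), a wide spread that the pooled error does not show. Its left signals were 0.535, 0.501, 4.40 and 0.701 against right signals of 2812, 32.9, 228 and 657. Those left signals lie near or under the offset of 3.982 added before the logarithm, so the size of the difference depends on that offset. The difference between the models was 4.91 ± 0.94 (adjusted p = 0.00067) and ran from 3.09 to 5.96 over the settings by side. Membrane-bound Mmp14 (2.95 in tenotomy, 0.62 in casting) and the gelatinase Mmp2 (2.51 and 0.49) rose on the right in both models and more in tenotomy (differences 2.33 and 2.02, adjusted p = 6.2e-06 and 2.5e-06). Stromelysin Mmp3 rose in both with no called difference (2.4 and 1.83, adjusted p = 0.61).

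Fibroblast markers had 8 of 15 members with a called higher difference in tenotomy and medians of 1.19 and 0.22. With the actin ratio as a covariate the count was 2. The proteoglycan lumican (Lum) differed by 1.87 and the fibroblast protease Fap by 1.37 between the models, both called in tenotomy alone. Among all genes without overlap between the animals of the models (579 or 3.61%, with 357 or 2.23% higher and 222 or 1.38% lower in tenotomy), the largest positive differences were again matrix and tendon genes with 2 exceptions. They were Mfap4 (difference 4.65), Cthrc1 (3.88), C1qtnf3 (3.74), Matn4 (3.25), Fbln7 (2.99), Col11a1 (2.92), Postn (2.85) and Tnmd (2.82), and the exceptions were Sln and Fos. Cthrc1, a secreted protein of collagen-producing cells, was also called in casting (5.10 ± 0.53 against 1.21 ± 0.35).

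Sarcolipin (Sln, probe set 1420884_at), a small inhibitor of the muscle calcium pump, showed the contrast within muscle fibres. Left tenotomy legs had signals of 87.7, 40.7, 42.3 and 52.6 and right legs 1695, 942, 908 and 1009. Each right leg was far above each left leg, and the leg differences were 4.21, 4.41, 4.30 and 4.16 (SD 0.11). Cast mice ran from 171 through 426 to 1930 on the left and from 265 through 366 to 608 on the right, with leg differences from -2.17 through -0.36 to 0.65. Naive muscles lay between 114 and 320, above all 4 paired left tenotomy legs and below all 4 right ones. The tenotomy difference was 4.27 ± 0.40 (adjusted p = 3e-10), the casting one -0.38 ± 0.27 (adjusted p = 0.40), and the difference between them 4.65 ± 0.48 (adjusted p = 4.5e-08), called in every setting by side.

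**Figure D3:**
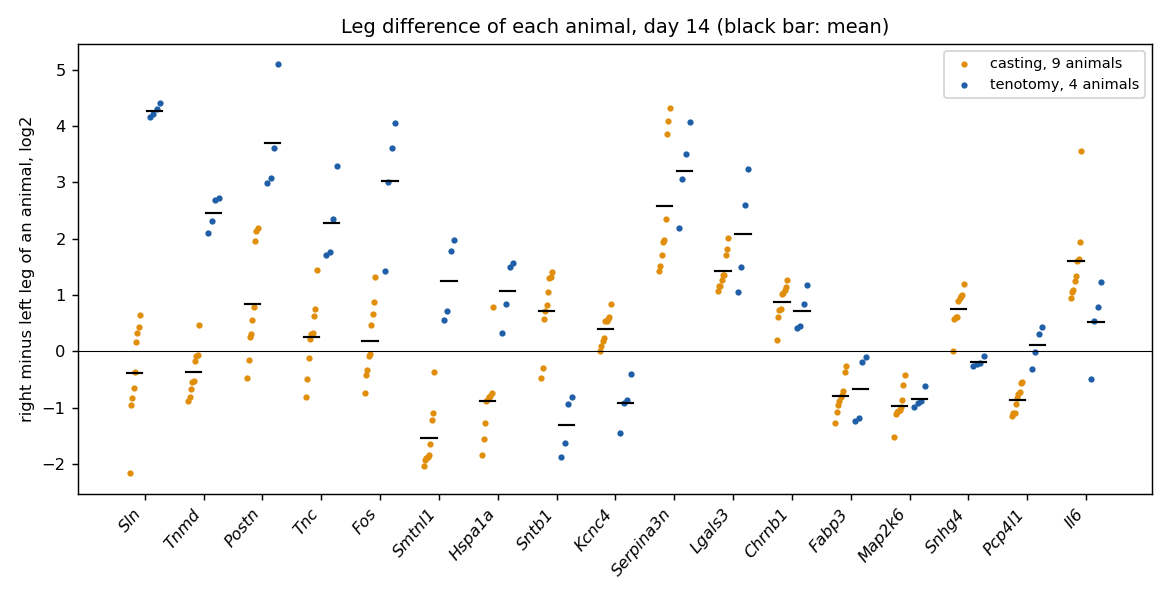
Right minus left leg of each animal (log2) for 17 genes, 9 cast mice (orange) and 4 tenotomy mice (blue), with the mean as a black bar. Sln, Tnmd, Postn and Tnc separate the models upward, Smtnl1 and Sntb1 lie on opposite sides of 0, and Serpina3n, Lgals3, Chrnb1 and Map2k6 lie on the same side.

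The myosin-binding protein Mybph gave 1.86, 3.03, 2.30 and 3.51 in tenotomy and -0.90 to 1.14 in casting (difference 2.67 ± 0.45, adjusted p = 0.00012), the only one of 20 fast fibre genes with a called difference. The early response transcription factor Fos gave 3.02, 3.61, 4.06 and 1.43 against -0.75 to 1.32 (difference 2.84 ± 0.40, adjusted p = 6.8e-06). Its right signals were 640, 716, 1135 and 112, so animal 38 was lowest. Both genes were called in tenotomy alone under each setting by side.

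Only 36 genes were called on opposite sides, and the one furthest to both sides, by the smaller of its leg differences, was Smtnl1, a regulator of contraction in smooth and skeletal muscle (probe set 1419145_at). Left tenotomy legs had signals of 894, 487, 590 and 1110 and right legs 1462, 1922, 2036 and 1637. In cast mice the left legs ran from 693 through 892 to 1040 and the right from 205 through 278 to 784. The right legs were thus above every left leg in tenotomy, and all 9 cast legs were below the free leg of the same mouse. The leg differences were 1.26 ± 0.32 and -1.54 ± 0.21, and the difference between the models 2.80 ± 0.38 (adjusted p = 4.1e-06). The tenotomy call was lost in 1 setting, without animal 35 (adjusted p = 0.052).

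The same pattern held for the pentraxin Ptx4 (1.03 and -0.88), the tubulin-binding Tppp3 (1.61 and -0.69), the retinoid-binding Crabp1 (1.29 and -0.73) and the tendon marker Cilp2. The differences of Ptx4 and Tppp3, and their calls in each model, passed in every setting by side. In the reverse direction, beta-1 syntrophin (Sntb1), which joins the dystrophin complex to signalling proteins, had left signals of 63.9, 106, 72.0 and 86.6 and right signals of 31.5, 25.9, 39.5 and 25.5 in tenotomy. In cast mice the median rose from 49.5 on the left to 91.0 on the right, with the right leg higher in 7 of 9 mice. Its leg differences were -1.31 ± 0.28 and 0.72 ± 0.19, and the difference between the models -2.03 ± 0.34 (adjusted p = 9.2e-05).

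Further genes lower on the right in tenotomy and higher in casting were the potassium channel Kcnc4 (-0.91 and 0.40), the membrane protein Tmem100 (-0.88 and 0.69), the secreted glycoprotein Lrg1 (-0.81 and 0.48), the actin-binding Nexn (-0.64 and 0.37) and the mitochondrial malic enzyme Me3 (-0.38 and 0.37). The calls of Sntb1 passed in every setting by side. The casting call was lost in 7 of 26 settings for Kcnc4, in 9 for Lrg1 and in 5 for Crabp1, and the tenotomy call of Me3 in 5. Tmem100 lost its casting call in 2 and its tenotomy call in 3, and Nexn in 4 and 1.

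**Figure D4:**
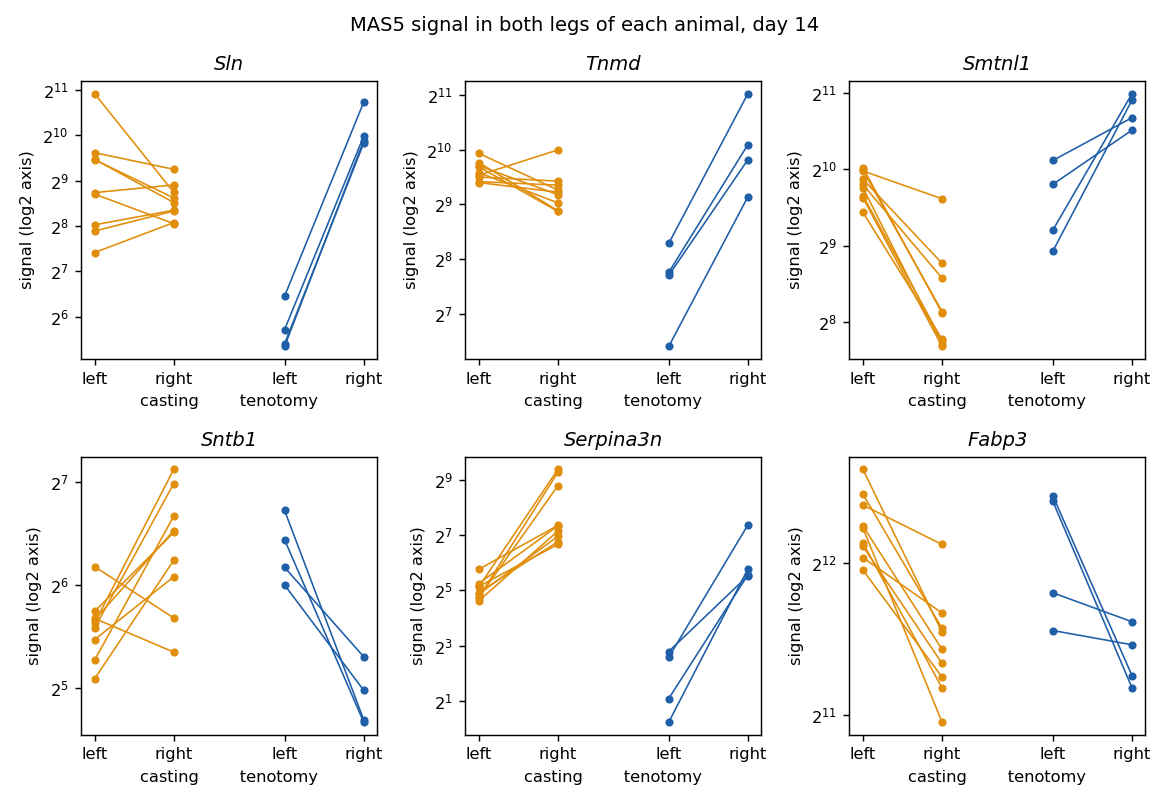
Deposited signal (log2 axis) in the left and right leg of each cast mouse (orange, 9) and tenotomy mouse (blue, 4), with a line per animal, for 6 genes. Sln and Tnmd climb in tenotomy only, Smtnl1 and Sntb1 run in opposite directions, and Serpina3n and Fabp3 run the same way in both models.

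Stretch-responsive and chaperone genes leaned to opposite sides, with a median of 0.22 in tenotomy and -0.25 in casting over 24 genes. Of these, 6 had a called higher difference in tenotomy and 0 a lower one, namely Csrp3, Hspa1b, Hspa1a, Xirp1, Dnaja1 and Bag3. The count fell to 0 with the actin ratio as a covariate, to 1 without tenotomy animal 36, to 3 without animal 35 and to 2 without the 3 cast animals with raised right arrays, and it was 10 with quantile normalization. The inducible heat shock protein Hspa1a was called on opposite sides, with the tenotomy call lost in 3 of 26 settings and the difference in 1. Its tenotomy leg differences were 0.85, 1.58, 1.49 and 0.33 (mean 1.06 ± 0.32, adjusted p = 0.015). In casting they ran from -1.85 through -0.85 to 0.79 (-0.88 ± 0.21, adjusted p = 0.0038). Hspa1b gave 1.48, 1.71, 2.37 and 0.48 in tenotomy, with a casting mean of -0.66 ± 0.29 that was not called (adjusted p = 0.13).

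These copies are near-identical, so that their probe sets may share signal, and their promoters show how alike they are. The 250 bases upstream of each start (RefSeq, GRCm38.p6) matched at 247 positions, or 98.8%. Hspa1a lies at chr17:34972157-34972406 and Hspa1b at chr17:34959239-34959488, both on the minus strand and printed 5' to 3'. Capitals mark the core of a heat shock element, GAANNTTC, which reads the same on both strands and starts 104 bases before the start of transcription in each.
Hspa1a: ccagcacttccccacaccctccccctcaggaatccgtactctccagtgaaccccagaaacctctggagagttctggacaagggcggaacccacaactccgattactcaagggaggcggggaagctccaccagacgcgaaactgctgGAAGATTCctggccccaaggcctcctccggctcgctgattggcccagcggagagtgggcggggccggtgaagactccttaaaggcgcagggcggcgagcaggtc
Hspa1b: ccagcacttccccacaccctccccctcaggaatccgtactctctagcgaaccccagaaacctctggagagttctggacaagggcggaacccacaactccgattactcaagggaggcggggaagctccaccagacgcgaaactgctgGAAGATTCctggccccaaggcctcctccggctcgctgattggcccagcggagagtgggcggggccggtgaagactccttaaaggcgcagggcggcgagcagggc
The motif occurs in the same window of 6.69% of 32851 listed promoters. A match is a description of the letters and not a measured site.

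The muscle LIM protein Csrp3, which senses stretch at the Z-disc, varied between animals in both models. Its tenotomy leg differences were 0.23, 2.25, 2.83 and -0.21, high in animals 35 and 36 and near 0 in the others, and casting ran from -2.88 through -0.92 to 1.27. The difference between the models was 2.27 ± 0.62 (adjusted p = 0.022). The casting call (-1.0 ± 0.35, adjusted p = 0.049) was lost in 15 of 26 settings. The ankyrin repeat protein Ankrd2, of the same list, split the tenotomy animals the same way (-0.58, 1.99, 2.02 and -1.28) and its difference of 1.40 was not called (adjusted p = 0.11).

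Slow fibre genes were lower in the cast leg in 7 of 17 (median -0.65), and in tenotomy 1 was higher and 3 were lower on the right (median 0.02). Over all genes 6.06% were lower in casting, and 10.7% were higher and 7.62% lower in tenotomy. Sln and Csrp3 were the members with a called difference between the models. Slow troponin I (Tnni1) gave tenotomy leg differences of -0.24, 1.77, 1.58 and -1.53, again high in animals 35 and 36, against -1.49 to -0.35 in casting, where all 9 were negative. Its difference of 1.5 ± 0.54 missed the threshold (adjusted p = 0.097), as did those of slow myosin Myh7 (0.85, adjusted p = 0.45) and the calcium store protein Casq2 (0.93, adjusted p = 0.065). Without the 3 cast animals with raised right arrays the casting count was 2, and without tenotomy animal 38 the list had 6 called differences. Both tenotomy legs were low in slow fibre genes against naive, -0.86 ± 0.42 on the right and -0.95 ± 0.55 on the left (SD, n = 5). Cast legs lay at -0.36 ± 0.27 and uncast legs at 0.22 ± 0.11 (SD, n = 9). Day 14 sham muscles lay at -0.32 ± 0.20 (SD, n = 8), near the cast legs and below the uncast ones.

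Among genes lower on the right in tenotomy alone, Pm20d2, a peptidase of the M20 family, had left signals of 252, 250, 288 and 298 and right signals of 42.7, 82.9, 107 and 58.0. The right leg was below the left in 4 of 4 animals, and the cast mice differed by -0.22 ± 0.13. The difference between the models was -1.70 ± 0.23 (adjusted p = 3.7e-06). Sel1l3 gave -1.15 ± 0.14 and -0.14 ± 0.09 (difference -1.01, adjusted p = 7.8e-05). Both were called in every setting by side. Prima1, a membrane anchor of acetylcholinesterase, fell on the right in both models and more in tenotomy (-2.01 ± 0.25 and -0.57 ± 0.17, difference -1.44, adjusted p = 0.002). Its casting call was lost in 4 of 26 settings. Ccdc92b (difference -2.12), Spag4 (-1.68) and Arrdc2 (-1.26) were called in tenotomy alone, and their tenotomy calls were lost in 4, 2 and 4 of 26 settings. The calls of Grip1 (difference -1.68) and Prr11 (-1.69) were less stable, with the difference lost in 18 and 11 settings.

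Casting alone held few genes and smaller changes. The noncoding snoRNA host gene Snhg4 was higher in the cast leg by 0.76 ± 0.10, with leg differences from 0.00 through 0.90 to 1.19. In tenotomy it gave -0.09, -0.22, -0.26 and -0.21, below all cast mice (difference -0.95 ± 0.18, adjusted p = 0.00061), and this call passed in every setting by side. Pcp4l1, a small protein related to a calmodulin regulator, was lower in the cast leg of 9 of 9 mice, from -1.15 through -0.82 to -0.55. Tenotomy gave 0.31, 0.44, -0.01 and -0.31, and the models did not overlap (difference 0.96 ± 0.20, adjusted p = 0.0015). That difference was lost in 1 setting, the actin ratio as a covariate.

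Nmrk2, a muscle kinase that makes a precursor of NAD, gave -0.67 ± 0.14 in casting and 0.46 ± 0.21 in tenotomy (difference 1.13, adjusted p = 0.004). Also lower in the cast leg alone were Tecrl (-1.07), Gpha2 (-0.98) and Col22a1 (-0.77), a collagen of the muscle-tendon junction. Higher there alone were the lectin Cd209e (1.68), the nuclear RNA Neat1 (0.95), dystrophin (Dmd, 0.80), Mta3 (0.73) and Arrdc4 (0.70). The differences of Neat1, Arrdc4 and Gpha2 were lost in 15, 13 and 12 of 26 settings. Ndufb4, called in casting (0.66, adjusted p = 0.033), was -0.86 in tenotomy with an adjusted p of 0.056.

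Clock genes had 2 of 18 with a called difference, against 5.2% of all genes. They were Ciart (-1.16, adjusted p = 0.01) and Rora (-0.64, adjusted p = 0.017), both called in the cast leg alone. The casting call of Rora was lost in 17 of 26 settings. The list had 6 members higher in the cast leg, against 6.81% of all genes. Both differences were lost without tenotomy animal 12.

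Macrophage markers rose on the right in both models. Of 28 tested, 26 were higher in the cast leg, 21 were higher on the right in tenotomy and 21 were called in both on the same side. The shares over all genes were 6.81%, 10.7% and 4.97%. The medians were 0.82 in casting and 1.25 in tenotomy. The difference between the models was called for 2, Gpnmb (1.18, adjusted p = 0.0054) and Csf1r (0.96, adjusted p = 0.025), both higher in tenotomy. The casting count was 17 without animal P-27. By level, right tenotomy legs lay 0.93 ± 0.28 above naive and left ones at -0.29 ± 0.26 (SD, n = 5), cast legs at 1.37 ± 0.43 and uncast legs at 0.57 ± 0.28 (SD, n = 9). The mean level was therefore higher in cast legs, although tenotomy had the larger median leg difference. The ranges overlapped, 0.945 to 2.16 in cast legs and 0.658 to 1.285 in right tenotomy legs. This sets the levels of separate cohorts side by side and was not tested.

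Galectin-3 (Lgals3), abundant in phagocytes, had left signals of 79.1, 81.5, 51.3 and 47.6 and right signals of 778, 172, 152 and 307 in tenotomy. In cast mice it ran from 74.6 through 91.0 to 157 on the left and from 195 through 245 to 380 on the right. Neither model had an overlap between its legs. The leg differences were 2.09 ± 0.33 and 1.43 ± 0.22, and the difference between them was not called (0.66 ± 0.39, adjusted p = 0.38). The pore-forming Mpeg1 gave 2.13 ± 0.42 and 0.92 ± 0.28 (difference 1.21, adjusted p = 0.17). The scavenger receptor Msr1 gave 0.91 in casting, called, and -0.39 in tenotomy (difference -1.30, adjusted p = 0.073).

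Serpina3n, a secreted protease inhibitor that rises in injured tissue, was the gene highest on the right in both models at once. Its left signals in tenotomy were 6.01, 6.94, 2.14 and 1.19 and its right signals 165, 46.1, 47.2 and 54.5. Cast mice ran from 24.6 through 30.4 to 54.3 on the left and had a median of 161 and a highest value of 662 on the right. The leg differences were 3.21 ± 0.56 and 2.58 ± 0.37, with no called difference between them (0.63 ± 0.67, adjusted p = 0.67). Because the left tenotomy signals lie near the offset, the sign of that difference turned with an offset of 32 (-0.46). The chemokines Ccl8 (2.28 and 1.89) and Ccl12 (2.03 and 1.89), the protease inhibitor Serpinb1a (2.66 and 1.5) and Wfdc17 (1.77 and 1.54) also rose in both.

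Of 31 cytokine and chemokine genes, 14 rose in the cast leg, 8 rose on the right in tenotomy and 6 were called in both on the same side. The shares over all genes were 6.81%, 10.7% and 4.97%. Interleukin-6 (Il6) was called in casting (1.60 ± 0.28, 9 of 9 animals) and not in tenotomy (0.78, -0.49, 0.54 and 1.24). The difference of -1.09 was not called (adjusted p = 0.24), and its signals were low, at most 10.7 in the paired tenotomy legs. Cxcl5 and Ccl7 had the same pattern, with differences of -1.66 and -1.36 that were not called. Complement genes had 9 of 13 higher in the cast leg, 7 higher on the right in tenotomy and 0 with a called difference between the models, and the casting count was 2 without animal P-27, 5 without P-26 and 4 without P-29. For the difference between the models, 5 complement genes had an unadjusted limma p under 0.05. Over all 16029 genes 2970 had one, the reference for such unadjusted counts. Of the 20 interferon and antigen presentation genes 3 had a called higher difference in tenotomy, Cd74 (1.43), H2-Eb1 (1.34) and H2-Aa (1.17), all of class II presentation. Neutrophil markers (11) and lymphocyte markers (12) had 0 called differences by limma, and 2 and 2 at an unadjusted p under 0.05.

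Fatty acid oxidation fell on the right in both models. Of 23 genes 15 were lower in the cast leg, 17 were lower on the right in tenotomy and 11 were called in both, with medians of -0.28 and -0.41. Over all genes 6.06% were lower in casting, 7.62% lower in tenotomy and 4.97% called on the same side in both. The heart-type fatty acid binding protein Fabp3 had left signals of 5577, 3015, 3582 and 5438 and right signals of 2454, 2825, 3138 and 2320 in tenotomy. The fall was large in animals 12 and 38 and small in 35 and 36. In cast mice it ran from 3975 through 4812 to 6294 on the left and from 1984 through 2766 to 4467 on the right, lower in 9 of 9 animals. The leg differences were -0.67 ± 0.19 in tenotomy (SD of its animals 0.62) and -0.79 ± 0.12 in casting (SD 0.32). The tenotomy count was 5 without animal 12, 6 without animal 38 and 8 with the actin ratio as a covariate, and the shared count then 1, 3 and 4.

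Called differences in this list were few and ran both ways. Pdk4, the kinase that shuts off pyruvate dehydrogenase, was lower in the cast leg of 9 of 9 mice (-0.64 ± 0.11) and gave 0.64, 0.48, 0.15 and 0.15 in tenotomy (difference 0.99 ± 0.20, adjusted p = 0.0015). The enoyl-CoA isomerase Eci1 (difference -0.47, adjusted p = 0.0091) and Etfdh (-0.45, adjusted p = 0.04), which passes electrons to the respiratory chain, were called lower in tenotomy alone. The Etfdh difference was lost in 13 of 26 settings and was 0.090 with the mean of its probe sets. The Pdk4 difference was lost in both fits that did not difference the legs, with the animal as a random block or with no term for it. Of 43 oxidative phosphorylation genes 6 were lower in the cast leg and 24 were lower on the right in tenotomy, against 6.06% and 7.62% of all genes. Among them 1, Ndufa5, had a called difference (-0.42, adjusted p = 0.027). The tenotomy count was 5 without animal 12, 15 without animal 38 and 6 with the actin covariate. Of 18 genes of the citric acid cycle 4 and 10 were lower, and 1, Idh3g, had a called difference (-0.37, adjusted p = 0.013). The tenotomy count was 4 without animal 12.

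Of 20 glycolysis genes 2 had a called difference, against 5.2% of all genes. They were the fructose bisphosphatase Fbp2 (-0.83, adjusted p = 0.0054) and hexokinase Hk1 (0.67, adjusted p = 0.015), in opposite directions. Outside these lists, the p38 activating kinase Map2k6 fell on the right by -0.85 ± 0.14 in tenotomy and by -0.96 ± 0.10 in casting, in 13 of 13 animals. The difference between the models was not called (0.11 ± 0.17 SE), and whether the falls were equal was not tested. Dusp8, Cntfr, Ppp1r1a and Slc25a30 also fell in both without a called difference.

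Of 19 genes of the nerve-muscle contact and of denervation, 5 rose in the cast leg, 5 rose and 1 fell on the right in tenotomy, and 3 were called in both models on the same side. The acetylcholine receptor subunit Chrnb1 had left signals of 210, 161, 202 and 151 and right signals of 281, 293, 279 and 347 in tenotomy. In cast mice it ran from 123 through 160 to 198 on the left and from 228 through 297 to 390 on the right. No left leg reached a right leg in either model, and the leg differences of 0.72 ± 0.16 and 0.87 ± 0.10 did not differ beyond their error (-0.15 ± 0.19, adjusted p = 0.74). Runx1, a transcription factor induced in denervated fibres, gave 1.70 ± 0.34 and 0.93 ± 0.22. Myogenin (Myog), which drives receptor genes in denervated muscle, gave 0.87, 0.90, 0.85 and 1.45 in tenotomy and a mean of 0.47 ± 0.14 in casting, a call lost in 4 of 26 settings. Called differences were those of Lrp4 (0.66, adjusted p = 0.031) and Gadd45a (-0.85, adjusted p = 0.039), lost in 8 and 12 of 26 settings. Over all genes 5.2% had a called difference. In casting 6.81% were higher on the right, in tenotomy 10.7% higher and 7.62% lower, and 4.97% were called on the same side in both.

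Myogenin and related factors bind E-boxes, CANNTG, and the promoters of both genes hold them. The 250 bases upstream of the start are printed 5' to 3' with each E-box in capitals (RefSeq, GRCm38.p6). Chrnb1 lies at chr11:69795938-69796187 on the minus strand and Myog at chr1:134289754-134290003 on the plus strand.
Chrnb1: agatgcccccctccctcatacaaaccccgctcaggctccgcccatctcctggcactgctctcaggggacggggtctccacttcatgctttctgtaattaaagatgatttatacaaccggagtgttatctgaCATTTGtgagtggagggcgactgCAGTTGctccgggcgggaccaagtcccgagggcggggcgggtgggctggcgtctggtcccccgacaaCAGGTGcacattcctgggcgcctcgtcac
Myog: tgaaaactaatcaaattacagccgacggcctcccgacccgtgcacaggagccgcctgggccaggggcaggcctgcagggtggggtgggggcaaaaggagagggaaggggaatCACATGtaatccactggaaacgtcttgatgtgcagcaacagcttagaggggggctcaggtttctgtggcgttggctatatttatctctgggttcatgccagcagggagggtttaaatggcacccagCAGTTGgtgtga
Chrnb1 holds 3 matches and Myog 2. The pattern reads the same on both strands and occurs in the same window of 66.2% of 32851 promoters, so its presence here is common.

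The series' title asks about protein degradation in the models. The ligase atrogin-1 (Fbxo32) gave tenotomy leg differences of -0.11, -0.64, -1.04 and 0.33 and casting ones from -0.81 through 0.45 to 1.05, called in neither model. The difference of -0.74 ± 0.27 was not called (adjusted p = 0.11). MuRF1 (Trim63) gave -0.75, -0.43, -0.40 and -0.37 in tenotomy, where the fall was called (adjusted p = 0.013), and 0.03 ± 0.10 in casting. The tenotomy call was lost in 5 of 26 settings, among them leaving out animal 12 (adjusted p = 0.13). The animals of the models did not overlap, and the difference of -0.51 ± 0.17 missed the threshold (adjusted p = 0.071). Of 22 muscle ubiquitin ligases and adaptors, Klhl40 had a called higher difference in tenotomy (0.65, adjusted p = 0.0032), and Znrf2 (-0.53, adjusted p = 0.0041) and Trim54 (-0.50) a called lower one.

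Of 31 subunits of the 26S proteasome 3 were higher in the cast leg and 3 lower on the right in tenotomy, near the shares over all genes (6.81% higher in casting and 7.62% lower in tenotomy). The difference between the models was called lower for Psmd8 (-0.60, adjusted p = 0.0065), Psmb2 (-0.42, adjusted p = 0.037) and Psmd1 (-0.32, adjusted p = 0.046), and 1 of the 3 was left without tenotomy animal 12, 35 or 36. Psmd4 was higher in the cast leg (0.24 ± 0.07) and 0.10 ± 0.10 in tenotomy. Of 32 autophagy genes and 10 calpain and caspase genes 0 had a called difference by limma, and 3 and 2 had an unadjusted p under 0.05. Over all 16029 genes 2970 had such an unadjusted p. Of 27 lysosomal genes 4 had a called difference, Ctsk, Glb1, Manba and Hexa, all higher in tenotomy. Cathepsin K (Ctsk), a collagen-degrading protease, was at 3.02 against 0.56 (difference 2.46 ± 0.33, adjusted p = 3.7e-06). Cathepsin L (Ctsl) was called in casting (0.27 ± 0.07) and was 0.00 ± 0.10 in tenotomy, with a difference of -0.27 that was not called (adjusted p = 0.22). The metallothionein Mt2 rose in both models (1.37 and 1.85), and its tenotomy call was lost in 7 settings.

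**Figure D5:**
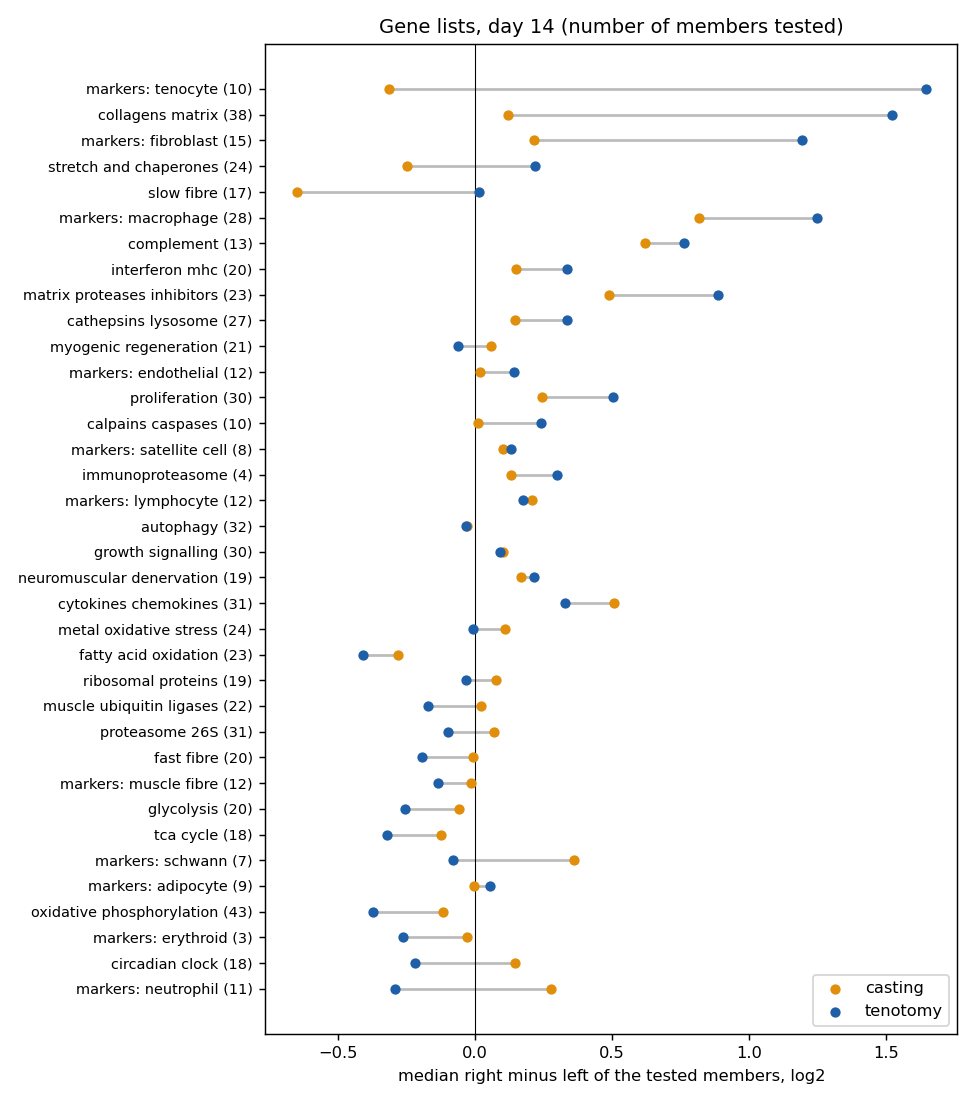
Median leg difference (log2) of the tested members of each of 36 lists in casting (orange) and tenotomy (blue), ordered by the median difference between the models, with the number of members tested in brackets. Tendon cell markers, collagens and matrix, and fibroblast markers stand apart at the top, and most other lists lie within 0.5 of 0 in both models.

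The called differences of the other lists stand beside shares of 3.39% higher and 1.81% lower over all genes. Growth signalling had 4 higher and 1 lower of 30, namely Igfbp4 (0.94), Tgfb1 (0.92), Igfbp6 (0.91) and Bmp1 (0.89) higher and Foxo4 (-0.59) lower. Proliferation had 2 of 30, Mcm6 and Ccnd2, both higher in tenotomy. Of these differences Tgfb1 and Mcm6 were each lost in 11 of 26 settings and Bmp1 in 5. Satellite cell markers had Chodl (1.63, adjusted p = 2e-06) and Spry1 (0.48) higher and Cdh15 (-0.47) lower of 8, and myogenic regeneration had Cdh15 alone of 21. The Spry1 and Cdh15 differences were lost in 8 and 13 settings. Among the 12 muscle fibre markers dystrophin alone differed. Metal and oxidative stress genes (24), ribosomal proteins (19) and the immunoproteasome (4) had 0 by limma. So had markers of endothelial cells (12), adipocytes (9), Schwann cells (7) and erythroid cells (3). In the same order, 5, 3, 0, 1, 1, 1 and 0 had an unadjusted limma p under 0.05. Over all 16029 genes 2970 had one. By level, adipocyte markers lay below naive in both tenotomy legs (-0.91 ± 0.42 on the right and -0.97 ± 0.53 on the left, SD, n = 5) and near it in cast mice (0.10 ± 0.33 and 0.00 ± 0.21, SD, n = 9). Day 14 sham muscles lay at -0.39 ± 0.28 (SD, n = 8).

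Read by the sample labels, with the tenotomy difference taken as left minus right, the picture turned over. The called differences between the models rose from 833 to 4028, the genes called in both models on the same side became 36 and those on opposite sides 797. Tenotomy alone then held 1759 genes and casting alone 741. The difference between the models became -5.79 for Serpina3n, -3.53 for Lgals3, -2.62 for Runx1 and -2.09 for Tnmd. It also became positive and called for Trim63 (0.46, adjusted p = 0.043). The counts called in each model do not depend on the reading.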

How the data were processed

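Per the labels, total RNA was taken with Trizol and RNeasy columns, and each muscle was hybridised to 1 Affymetrix array. The deposited values are linear signal intensities made by the authors with MAS5 and GCOS, per the submitters' processing notes, whose versions and scaling target are not given in the sources used here. The trimmed mean of each array lay between 99.955 and 99.965, and no array pair was identical. Of 45101 probe sets, 34958 with 1 annotated gene were used (34754 symbols updated through the RefSeq table, GRCm38.p6). A gene was represented by its probe set with the highest mean and tested if above the array's 40th percentile in at least 5 arrays (16029 of 18194 genes). Dim genes pass through the leg in which they are bright.

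An offset of 3.982, the 20th percentile over the arrays, was added before taking log2, and the values were differenced, right minus left, in all 41 casting and tenotomy animals with both legs. One limma fit (R 4.3.3, limma 3.58.1) held 6 model and day means with an intensity trend (35 residual and 8.414 prior degrees of freedom), with Benjamini-Hochberg adjustment within a comparison at 0.05. The fit was tested on simulated data. Legs pair because the labels give the same animal. At day 14 the mean residual correlation within animals was 0.019 in casting and 0.044 in tenotomy, against -0.002 and -0.015 between animals.

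Members, gene lists and settings were chosen with earlier results of these data known. Genes named in the text were 28 fixed genes, the 10 largest positive and negative differences without overlap, the top 6 of each class and direction, and up to 4 per list with the largest difference. Others are named as exceptions, after their values were seen. Figures were drawn with matplotlib 3.10.9.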

Additional observations from a re-analysis of the deposited data

Results flagged for a closer look

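Single animals stood away from their group in 6 measures of the right minus left leg. The rule was the gap to the nearest animal against the group's range (Dixon's 95% limit, which chance passes in about 1 group in 20). The fixed genes and several gene lists were screened this way in each model, without correction for their number. Some of the 6 would therefore be expected by chance. In casting, animal P-22 had the lowest Fbxo32 (-0.81), and animal P-27 the highest Ctsl (0.68), Il6 (3.56) and mean of the fibroblast markers (0.95). In tenotomy, animal 12 had the lowest Trim63 (-0.75) and animal 38 the highest Myog (1.45). The right minus left difference differed by the test of the difference itself between the models for 833 genes. In the unpaired right leg of tenotomy animal 11, which the paired comparison does not use, the tendon cell markers lay 1.67, the collagen and matrix genes 1.18 and the macrophage markers 1.16 log2 units above naive, each beyond all naive and day 14 sham muscles.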

How the results depend on the processing

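Counts are of genes called, and all alternatives were run one at a time. The sample labels' reading of the tenotomy legs gave 4028 differences, 36 genes on the same side, 797 on opposite sides, 1759 in tenotomy alone and 741 in casting alone, and turned the difference of Trim63 (0.46), Runx1 (-2.62), Myog (-1.49), Cdkn1a (-1.28), Myh4 (0.14), Ppargc1a (0.38), Csrp3 (-0.28), Serpina3n (-5.79), Lgals3 (-3.53), Mpeg1 (-3.05), Col1a1 (-1.48), Tnc (-2.53), Lox (-3.37) and Tnmd (-2.09). With no replicate block, the pairing of the legs being replaced by a random animal block, 1305 differences, 962 genes in tenotomy alone and 155 in casting alone were called. Settings added after seeing the data were the actin ratio as a covariate (248 differences, 479 same side, 180 tenotomy alone, 28 casting alone, 1855 in tenotomy) and leaving out the 3 cast animals with raised right arrays (523 differences, 21 opposite, 42 casting alone, 1294 in casting). Array weights gave 143 and the mean of probe sets 53 genes in casting alone. Leaving out 1 animal gave 318 to 896 differences, 1467 to 2157 casting and 1362 to 2977 tenotomy calls, 430 to 856 on the same side, 20 to 44 on opposite sides, 230 to 704 in tenotomy alone and 44 to 137 in casting alone. Uncalled differences also changed sign for Serpina3n (-0.46, offset of 32), Myh4 (0.040, quantile normalization, and 0.65, actin covariate) and Fabp3 (-0.079 to 0.30 when a tenotomy animal was left out, below 0 without animal 35 or 36). The causes were not tested. Signals near the offset limit the size of differences in dim genes.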
